A study of Rattus norvegicus with 12 samples.

Results

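The genes of cholesterol and fatty acid synthesis under the control of sterol regulatory element-binding proteins (SREBPs) were followed through RNA-seq of rat hepatic progenitor cells. The 33 genes were taken by symbol from a list, out of a table of 22384 lines with a gene symbol. Each gene had 1 line, and all 33 reached the mean of 1 FPKM (sequenced fragments relative to transcript length and to the library's mapped total) that 11860 lines reached and that was required for testing. By role, 8 make squalene through mevalonate, 10 turn squalene into cholesterol, 6 control SREBP or move sterols, and 9 make, lengthen or desaturate fatty acids.

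Hepatic progenitor cells (HPCs) are immature liver cells with the capacity to become hepatocytes or bile duct cells. The cells were labelled as coming from gestation day 13.5 and formed 6 groups of 2 libraries each. Wild-type cells were untreated or treated with tumour necrosis factor alpha (TNFα) for 1 hour. Cells labelled Tnfrsf1α-/- and cells labelled Tnfrsf1β-/-, names that point to the TNF receptors TNFR1 and TNFR2, were each untreated or treated in the same way. No label gives a strain background, the way the alleles were made, whether a genotype is 1 line or clone, or whether the 2 libraries of a group are separate cultures. The p-values below therefore rest on the variation from library to library, some or all of which may be technical. All levels are log2(FPKM + 1), a scale per transcript length on which genes can be compared, and all differences are differences of that quantity. A difference on this scale understates the change of a gene with a low level.

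Cells make cholesterol from acetyl-CoA through mevalonate, squalene and lanosterol, and the same acetyl-CoA feeds fatty acid synthesis. When sterols in the endoplasmic reticulum run low, the escort protein Scap carries SREBP precursors to the Golgi, where they are cut into active transcription factors. When sterols are plentiful, Insig proteins hold Scap back. The liver is a main site of both pathways in the body, and Insig1 is itself a well-known SREBP target.

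Promoter sequences show what the members share apart from their function. RefSeq promoters (GRCr8, from 250 bases before to 50 bases after each start) were matched by symbol for 26 of the 33 genes, Srebf1 with 2 starts, which gave 27 promoters. Pmvk, Fdft1, Sqle, Stard4, Acaca, Fasn and Elovl6 had no match. Both strands were searched for 3 motifs that do not contain one another. The CCAAT sequence bound by NF-Y, a factor known to act with SREBPs, was in 20 of the 27 promoters (74.1%), against 37.5% of all 33469 promoters of that length. The E-box CACGTG was in 3 of the 27 (11.1%; Insig1, Sc5d and Scap), against 6.42% of all. A strict sterol regulatory element, TCACNCCAC, was in 0 of the 27, against 1.12% of all. These matches describe letters in the window, and their absence says nothing of binding by a factor.

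The 250 bases upstream of 4 genes are printed because these genes had some of the widest ranges of level among the libraries. Their motif content ranges from none to both an NF-Y box and an E-box. Each is read 5′ to 3′ on the gene's own strand, and capitals mark CCAAT, its reverse complement ATTGG, or CACGTG. Fdps lies on the minus strand with its window at chr2:176804817-176805066, Insig1 on the minus strand at chr4:8057770-8058019, Tm7sf2 on the minus strand at chr1:212789542-212789791 and Aacs on the minus strand at chr12:36817775-36818024, all in GRCr8.
Fdps: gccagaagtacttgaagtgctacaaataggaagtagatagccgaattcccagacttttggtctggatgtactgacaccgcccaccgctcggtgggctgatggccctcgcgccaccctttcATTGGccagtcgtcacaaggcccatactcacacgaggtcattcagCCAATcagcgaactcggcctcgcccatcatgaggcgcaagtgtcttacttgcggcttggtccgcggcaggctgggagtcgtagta
Insig1: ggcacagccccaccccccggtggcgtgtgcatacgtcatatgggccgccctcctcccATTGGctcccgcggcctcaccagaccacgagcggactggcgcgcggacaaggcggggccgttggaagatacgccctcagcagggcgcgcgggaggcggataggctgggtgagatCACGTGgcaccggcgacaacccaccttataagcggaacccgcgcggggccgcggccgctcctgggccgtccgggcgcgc
Tm7sf2: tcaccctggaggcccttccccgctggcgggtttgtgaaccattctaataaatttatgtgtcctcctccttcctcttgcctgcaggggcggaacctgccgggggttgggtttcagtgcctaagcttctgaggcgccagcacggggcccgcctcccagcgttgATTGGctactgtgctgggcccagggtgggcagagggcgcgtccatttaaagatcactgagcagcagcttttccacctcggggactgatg
Aacs: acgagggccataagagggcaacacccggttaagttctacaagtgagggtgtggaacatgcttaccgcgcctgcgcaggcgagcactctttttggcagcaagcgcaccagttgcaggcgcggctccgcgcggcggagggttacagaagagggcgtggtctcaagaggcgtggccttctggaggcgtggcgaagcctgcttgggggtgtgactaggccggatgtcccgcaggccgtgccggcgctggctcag
Fdps has 2 NF-Y boxes, which begin 130 and 85 bases before the start. Insig1 has 1 NF-Y box, 193 bases before the start, and 1 E-box, 79 bases before it. Tm7sf2 has 1 NF-Y box in the printed bases, 89 before the start, and a further one after the start. Aacs has none of the 3 motifs.

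The labels were checked first. Tnfrsf1a, the TNFR1 gene, stood at 5.65 to 6.13 in the 4 libraries labelled Tnfrsf1α-/- and at 5.15 to 5.65 in the 4 wild-type ones, and so was not reduced. The groups are therefore called by their label, and any direction drawn from them rests on that label. Tnfrsf1b, the TNFR2 gene, was listed at 0 in the 4 Tnfrsf1β-/- libraries but likewise in untreated wild type, so it cannot tell those groups apart. Total FPKM was 447554 to 472935 in the 4 untreated libraries with a knockout label and 1071530 to 2085916 in the other 8, and the read depth is unknown. Replicates were close in 5 groups (Spearman's rho across tested genes 0.961 to 0.996) but not in the pair labelled Tnfrsf1α-/- with TNFα, at 0.782. For contrasts that rest on this pair, the median of the 33 genes is given below with and without each of its libraries. In untreated wild type, replicate 1 was higher than replicate 2 in 29 of the 33 genes, with a median difference of 0.38. Over all tested genes, 9.74% were higher by over 1 in that replicate 1 and 1.16% in that replicate 2, a shift that rho does not show.

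Cell type markers also divided the groups. The 14 hepatocyte markers summed to 5050 and 5220 FPKM in wild type with TNFα and to 8.96 to 26.7 FPKM in the other 10 libraries, and all 11 that could be tested were higher with TNFα in wild type. Apart from Tf, these 11 reached the mean required for testing only through the treated wild-type pair, so that count was fixed in advance. Alb, serum albumin, was at 10.01 and 9.92 there and at 0 to 0.27 elsewhere. Vim, the mesenchymal filament protein vimentin, was at 1.22 and 1.34 there and at 8.93 to 10.92 elsewhere. Of the 8 tested markers of the mesenchymal and stellate list, 6 were lower with TNFα in wild type and 2 were higher, Tagln (3.28, limma adjusted p = 1.07e-05) and Dcn (1.71, limma adjusted p = 0.0179), and the 11 listed lines summed to 2240 and 3090 FPKM there against 4230 and 4720 FPKM untreated. Of the 9 tested progenitor and bile duct markers 7 were higher in that contrast. Among them Krt18, Krt19, Epcam, Cd24 and Afp were at most 0.46 in the other 10 libraries. They were tested only because treated wild type was high, so their calls were fixed in advance. The progenitor and bile duct marker Sox9 was at 0.02 to 0.31 in the 4 untreated libraries with a knockout label and at 5.21 to 9.67 in the other 8. In bulk RNA, fewer cells of a type and less RNA per cell cannot be told apart.

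The 33 genes together held 0.143% and 0.193% of all FPKM in untreated wild type, 0.401% and 0.456% in wild type with TNFα, and 1.13% and 1.15% under the label Tnfrsf1α-/- with TNFα. They held 0.0851% and 0.0968% in Tnfrsf1β-/- with TNFα, the lowest share of the 6 groups. The untreated libraries labelled Tnfrsf1α-/- stood at 0.154% and 0.155%, and those labelled Tnfrsf1β-/- at 0.229% and 0.237%. A level of 9 was passed in at least 1 library by 6 genes: Mvd, Fdps, Insig1, Elovl6, Tm7sf2 and Aacs. Together they held 0.0566% to 1.12% of all FPKM in the 4 other groups, more there than the other 27 genes together, but 0.0264% to 0.0431% in the untreated libraries with a knockout label, where the other 27 held more. That threshold was chosen after the values were seen. Just inside it, Insig1 reached 9.92 and Elovl6 9.95, and just outside it Acly reached 8.12. The other 27 genes held their largest shares in the untreated libraries with a knockout label (0.128% to 0.194%), where total FPKM was lowest.

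**Figure D1:**
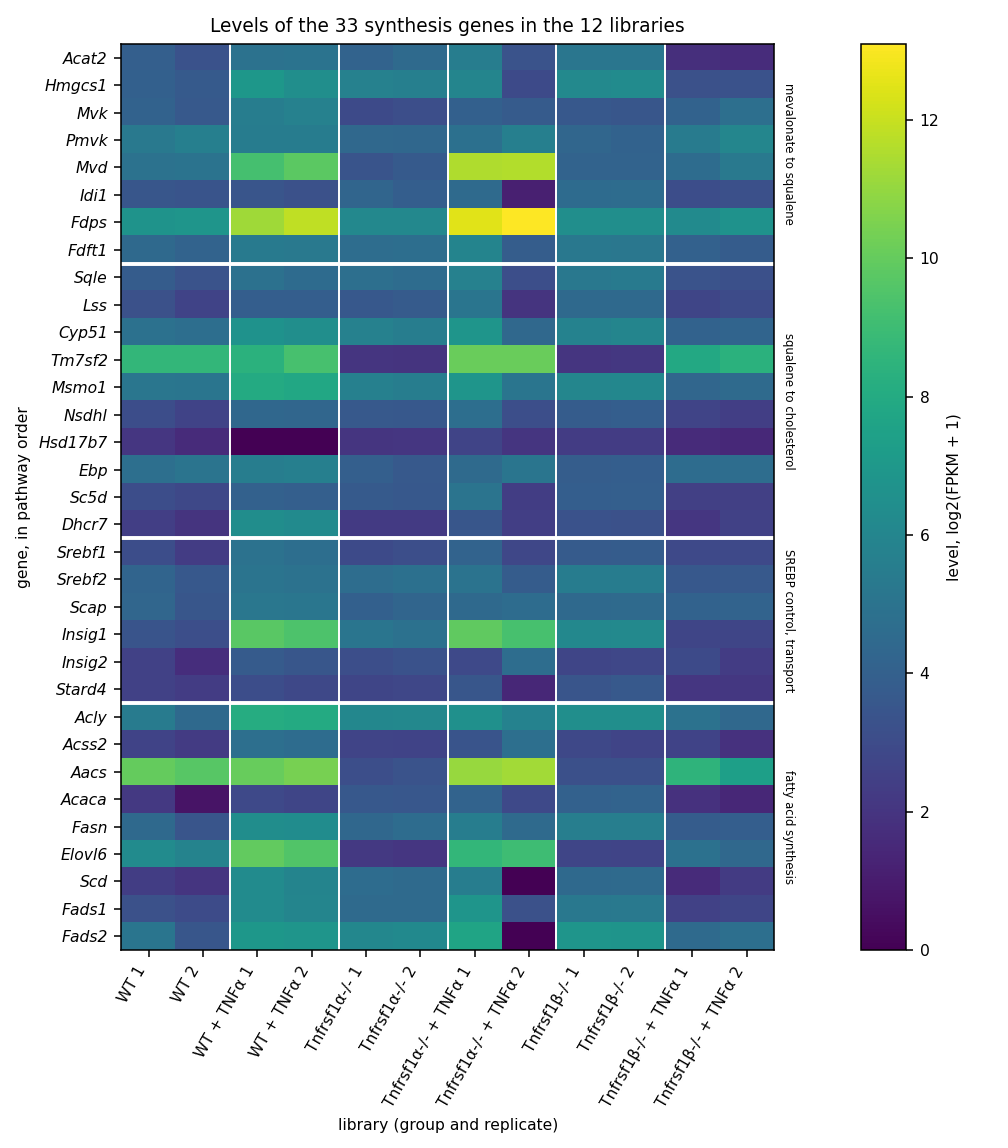
Level of each of the 33 genes, as log2(FPKM + 1) on the colour scale, in each of the 12 libraries, with genes ordered by role. The treated libraries labelled wild type or Tnfrsf1α-/- hold the highest values, up to 13.05 for Fdps, and Tm7sf2 and Aacs are low in the 4 untreated libraries with a knockout label.

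Pairs of groups differed in how near they were to each other over the 33 genes. Untreated wild type and treated Tnfrsf1β-/- were the nearest pair of the 15, with a median absolute difference of 0.32 between group means, and 30 of the 33 genes lay within 1 of each other although both labels differ. The 3 beyond 1 included Acat2, the cytosolic thiolase that opens the mevalonate route, with the largest gap (1.92). The 2 untreated groups with a knockout label were also near each other, at a median of 0.52 with 30 genes within 1. Wild type with and without TNFα differed by a median of 1.76, with 25 genes beyond 1, and treated wild type and treated Tnfrsf1β-/- by 1.94, with 27 genes beyond 1. These distances are descriptions without a test.

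In wild type, genes of each of the 4 roles were higher with TNFα, and 12 of the 33 did not pass. Of the 33 genes 20 passed as higher (background: 31.9% of all tested genes) and 1 as lower (15.3%), by limma with Benjamini-Hochberg adjusted p under 0.05. The median difference of the 33 was 1.52, against 0.32 over all tested genes. In 29 of the 33 both treated libraries lay above both untreated ones, as did 49.6% of all tested genes. Scaling the libraries by median ratios left 14 higher and 1 lower and quantile normalization 12 and 1, while the share of all called genes that were higher went from 67.6% to 49.2% and 45.6%. The median of the 33 was 1.12 and 0.92 under these scalings, against -0.04 and -0.06 over all tested genes. With only the groups compared 25 were higher and 1 lower, and without the treated pair labelled Tnfrsf1α-/- 28 and 1. In these fits 50.6% and 64.5% of all tested genes were called, against 47.2% with all 12 libraries. Leaving out untreated replicate 1 or 2, the median of the 33 was 1.91 or 1.24, against 0.46 or 0.18 over all tested genes. Leaving out treated replicate 1 or 2, it was 1.46 or 1.64, against 0.26 or 0.37. The hepatocyte, mesenchymal and progenitor lists above moved in part or whole with this same contrast, and their part in it was not tested.

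Among the controllers, Insig1, which retains the Scap complex in the endoplasmic reticulum, was at 3.42 and 3.13 in untreated wild type and at 9.76 and 9.45 with TNFα. The groups did not overlap and the difference was the largest of the 33 genes (6.33, SE 0.24, limma adjusted p = 5.74e-08), about 80.6-fold on the FPKM + 1 scale. Its relative Insig2 was at 2.51 and 1.73 untreated and at 3.77 and 3.52 treated, a smaller difference (1.52, SE 0.53, limma adjusted p = 0.0437) that did not pass under either other scaling. Srebf1, which encodes the SREBP tied most to fatty acid synthesis, went from 3.09 and 2.31 to 4.93 and 4.71 (2.12, SE 0.43, limma adjusted p = 0.00402). Srebf2, which encodes the SREBP tied most to cholesterol synthesis, went from 4.22 and 3.62 to 5.05 and 4.93 (1.08, SE 0.35, limma adjusted p = 0.0351), a call also lost under both other scalings. Scap went from 4.31 and 3.49 to 5.18 and 5.16 (1.27, SE 0.26, limma adjusted p = 0.00471). Stard4, a carrier of cholesterol between membranes, did not pass (0.55, SE 0.53).

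In the mevalonate route 4 of 8 genes (50%, against 31.9% of all tested genes) were higher. Fdps, which makes farnesyl diphosphate, was at 6.75 and 6.84 untreated and at 11.21 and 11.86 treated (4.74, SE 0.27, limma adjusted p = 1.14e-06). Mvd, which decarboxylates mevalonate diphosphate, was at 4.92 and 4.99 untreated and at 9.24 and 9.81 treated (4.57, SE 0.27, limma adjusted p = 1.42e-06). Both genes rose to levels that no other gene of the route reached. Hmgcs1, the HMG-CoA synthase, was at 4.02 and 3.69 and then at 6.95 and 6.49 (2.86, SE 0.76, limma adjusted p = 0.0145), and Mvk, mevalonate kinase, rose by 1.76 (SE 0.26, limma adjusted p = 0.000826). Of the remaining genes, Acat2 differed by 1.32 and Fdft1, the squalene synthase, by 0.98, and neither passed. Pmvk (0.02, SE 0.30) and Idi1 (-0.10, SE 0.84), which act between Mvk and Fdps, were near 0.

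From squalene to cholesterol 5 of 10 genes were higher (50%, against 31.9%) and 1 was lower (10%, against 15.3%). Dhcr7, the reductase of the last step to cholesterol, stood at 2.45 and 1.96 untreated and at 6.43 and 6.29 treated, values reached in no other group (4.16, SE 0.36, limma adjusted p = 2.17e-05). Msmo1, which oxidizes the sterol methyl groups, rose by 2.78 (SE 0.45, limma adjusted p = 0.00129). Cyp51, the lanosterol demethylase, rose by 1.77 (SE 0.60, limma adjusted p = 0.0384), Nsdhl by 1.48 (SE 0.43, limma adjusted p = 0.022) and the sterol isomerase Ebp by 0.72 (SE 0.23, limma adjusted p = 0.0306). Hsd17b7, a sterol ketone reductase, had untreated levels of 2.09 and 1.60 but was listed at 0 in the treated wild-type pair, while the other 8 libraries held 1.5 to 2.69. A listed 0 can be a failed estimate, so no fold is given. Tm7sf2, a sterol reductase, was already at 8.69 and 8.68 without TNFα and at 8.36 and 9.30 with it, a difference that did not pass (0.14, SE 0.29).

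Of the 9 fatty acid genes 6 were higher (66.7%, against 31.9%). Elovl6, which lengthens palmitate, went from 6.33 and 5.88 to 9.95 and 9.53 (3.63, SE 0.25, limma adjusted p = 4.59e-06). Acly, which makes cytosolic acetyl-CoA from citrate, went from 5.44 and 4.46 to 8.12 and 7.99 (3.11, SE 0.36, limma adjusted p = 0.000151), and Fasn, the fatty acid synthase, from 4.48 and 3.46 to 6.41 and 6.39 (2.43, SE 0.39, limma adjusted p = 0.00113). These 3 genes cover the supply of substrate, the synthesis of the chain and its lengthening. Acss2, which makes acetyl-CoA from acetate, rose by 2.25 (SE 0.43, limma adjusted p = 0.00306). The desaturase genes Fads1 (3.0, SE 0.89, limma adjusted p = 0.0233) and Scd (3.92, SE 1.37, limma adjusted p = 0.0437) also passed, with wide errors. Along the pathways, the wild-type calls of Hmgcs1, Cyp51, Nsdhl, Ebp, Fads1 and Scd were each lost under at least 1 alternative. Fads2 (2.57, SE 1.90) and Acaca, the acetyl-CoA carboxylase (1.40, SE 0.52), did not pass, nor did Aacs, which activates acetoacetate (0.39, SE 0.33). The error of a gene was estimated over all 6 groups. The treated pair labelled Tnfrsf1α-/- had standard deviations of 5.43 for Fads2, 3.93 for Scd and 2.53 for Fads1. Untreated and treated wild type had 1.1 and 0.08 for Fads2, 0.25 and 0.28 for Scd, and 0.21 and 0.24 for Fads1.

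**Figure D2:**
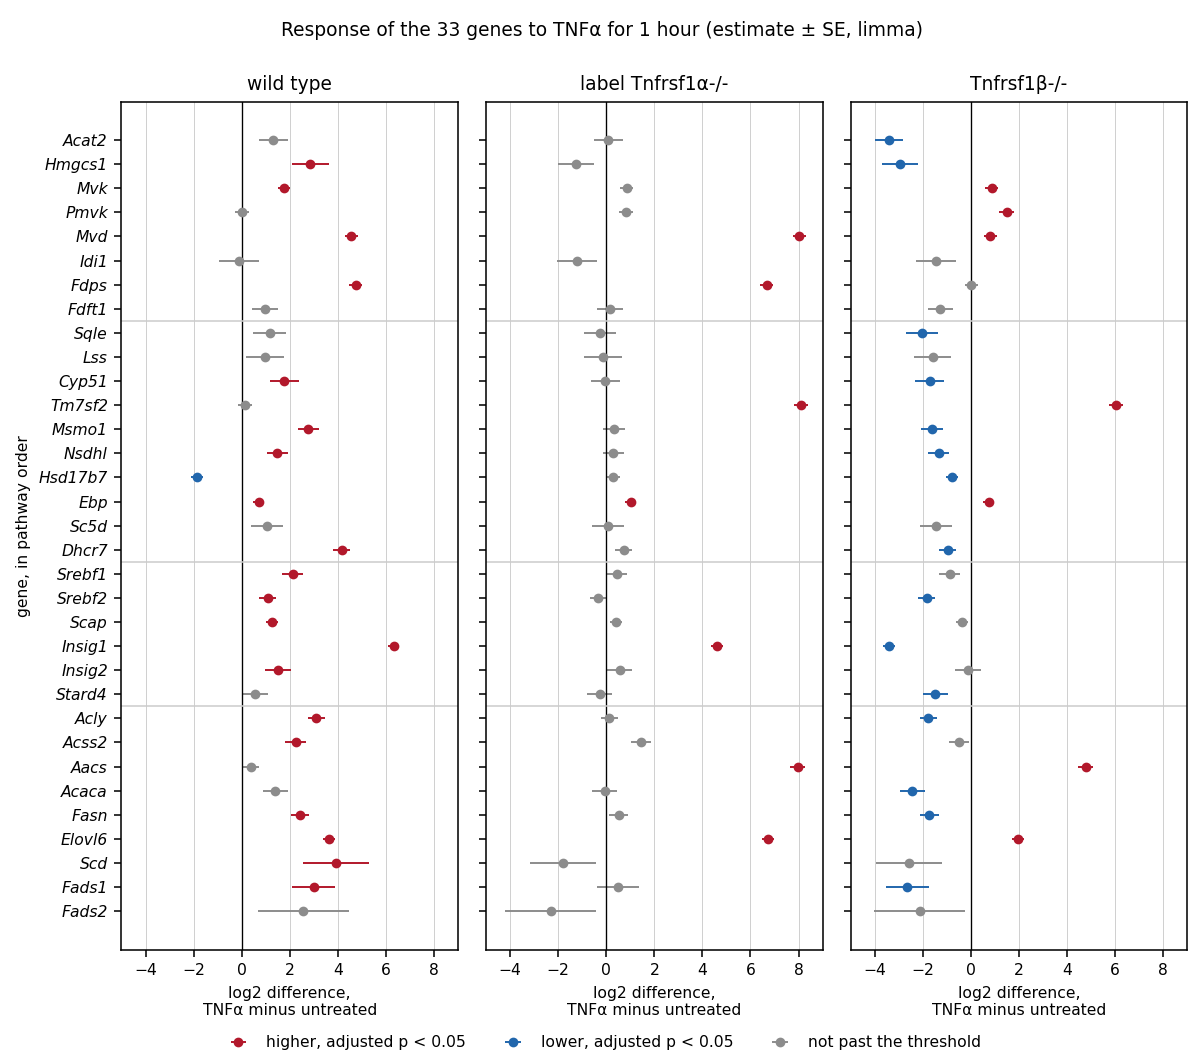
Difference of level between treated and untreated libraries, on the log2(FPKM + 1) scale with bars of 1 SE from limma, for the 33 genes in wild type, in the label Tnfrsf1α-/- and in the label Tnfrsf1β-/-, ordered by role. Insig1 is at 6.33 in wild type, 4.61 under the label Tnfrsf1α-/- and -3.40 in Tnfrsf1β-/-.

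Under the label Tnfrsf1α-/-, TNFα went with very large differences in 6 genes and with none that passed in most others. Of the 33 genes 7 were higher (background: 9.81% of all tested genes) and 0 were lower (7.5%). At an unadjusted limma p under 0.05 the count of lower genes was also 0. The median was 0.33 against -0.02 over all tested genes. These values rest on the mean of 2 treated libraries that differed in many genes. The median of the 33 was -0.27 without treated replicate 1 and 1.08 without treated replicate 2. The count of 0 therefore does not show that no gene was lower in either library. Tm7sf2 went from 2.0 and 1.98 to 10.13 and 10.09 (8.12, SE 0.29, limma adjusted p = 1.12e-07). Mvd went from 3.38 and 3.70 to 11.56 and 11.61 (8.04, SE 0.27, limma adjusted p = 7.49e-08). Aacs went from 3.13 and 3.33 to 11.08 and 11.30 (7.96, SE 0.33, limma adjusted p = 2.6e-07). On the FPKM + 1 scale these are 278-fold, 263-fold and 250-fold.

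Elovl6 was at 2.17 and 2.06 untreated and at 8.67 and 9.01 treated under this label (6.73, SE 0.25, limma adjusted p = 1.38e-07). Fdps was at 6.09 and 6.14, then at 12.51 and 13.05, its highest levels in the series (6.67, SE 0.27, limma adjusted p = 2.19e-07). Insig1 was at 5.10 and 4.90, then at 9.92 and 9.30 (4.61, SE 0.24, limma adjusted p = 1.02e-06). The 7th gene was Ebp, at a smaller difference (1.01, SE 0.23, limma adjusted p = 0.0202). Srebf1 (0.43, SE 0.43), Srebf2 (-0.33, SE 0.35), Scap (0.40, SE 0.26) and Insig2 (0.55, SE 0.53) did not pass. Sox9 and the keratin Krt7, progenitor and bile duct genes, rose in the same libraries (Sox9 from 0.23 and 0.31 to 9.67 and 9.39, Krt7 from 7.75 and 7.99 to 14.63 and 15.11), but they were the only 2 of 9 tested progenitor markers that passed. Krt8 of that list went from 7.86 and 7.95 to 6.26 and 0.62, the list median was 0.17, and its summed level went from 445 and 500 to 26300 and 36000 FPKM. Their part in these results was not tested.

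**Figure D3:**
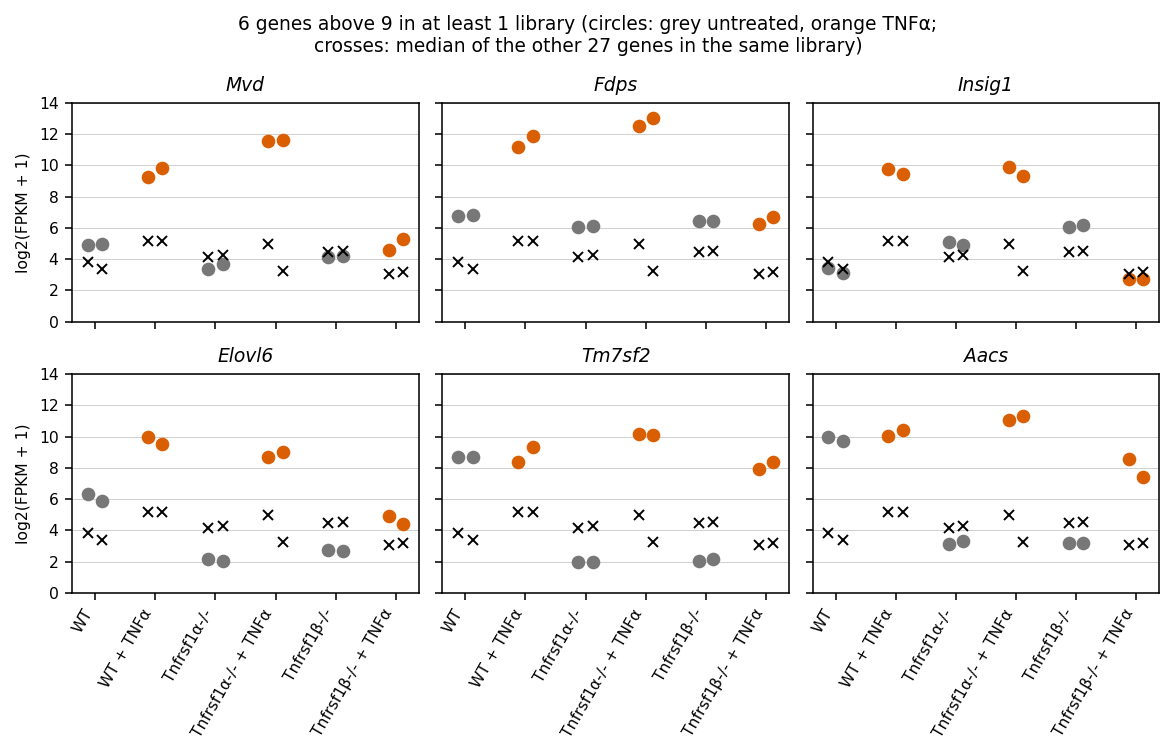
Level, as log2(FPKM + 1), of the 6 genes that passed 9 in at least 1 library, with 1 point for each library in the 6 groups. Tm7sf2 and Aacs are high in all groups except the 2 untreated ones with a knockout label, whereas Mvd, Fdps and Insig1 are highest in the treated wild-type and Tnfrsf1α-/- groups.

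The 2 treated libraries labelled Tnfrsf1α-/- differed in many of the 33 genes. Replicate 1 was higher than replicate 2 by more than 1 in 19 genes and lower by more than 1 in 2, against 19.8% and 13.7% of all tested genes, and the median absolute difference of the 33 was 1.37. Fads2 was at 7.67 in replicate 1 and listed at 0 in replicate 2, and Scd was at 5.56 and at 0. Both genes encode desaturases. Fads1 was at 6.82 and 3.24, Idi1 at 4.52 and 1.17, the lanosterol synthase gene Lss at 5.10 and 1.99 and Hmgcs1 at 5.95 and 2.93. In the opposite direction, Insig2 was at 2.88 and 4.68 and Acss2 at 3.42 and 4.79. The 6 genes with the largest treatment differences were within 0.62 of each other in this pair.

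These libraries also differed in other cell markers. Replicate 2 held Acta2, smooth muscle actin, at 0.26 against 8.55 in replicate 1, Krt8 at 0.62 against 6.26, Spp1 at 6.12 against 0 and Tnfrsf1b at 4.09 against 0. Their part in the results was not tested. Without treated replicate 1 the median difference of the 33 genes was -0.27, against -0.05 over all tested genes. Without treated replicate 2 it was 1.08, against -0.01. Mvd, Fdps, Insig1, Elovl6, Tm7sf2 and Aacs passed as higher under every alternative, including without either treated library.

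**Figure D4:**
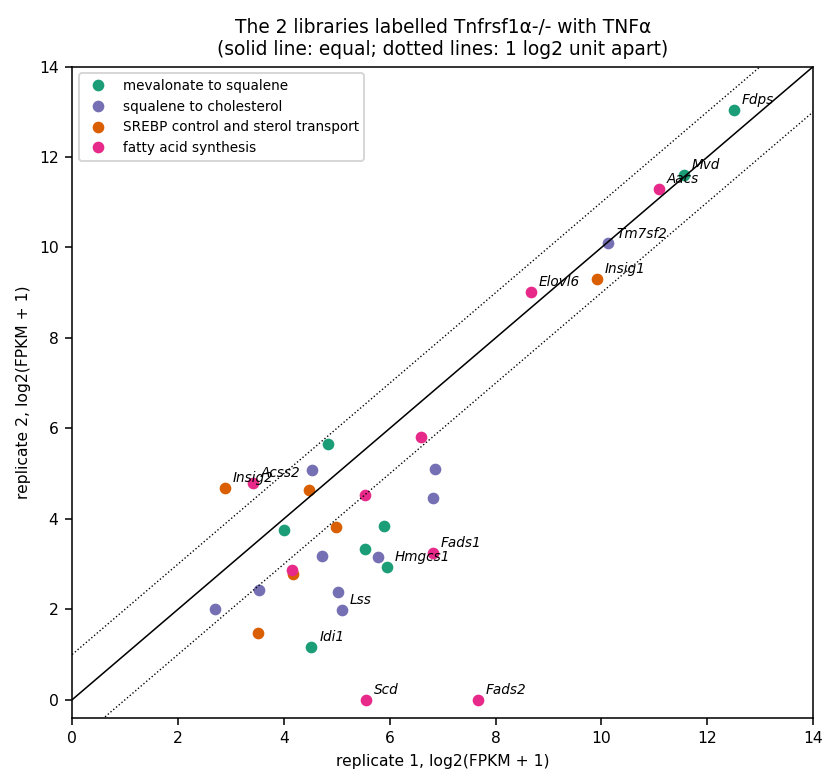
Level of each of the 33 genes in the 2 replicates labelled Tnfrsf1α-/- with TNFα, both axes as log2(FPKM + 1), with the line of equal levels. The 6 genes with the largest treatment differences lie near the line, and Fads2 and Scd lie at 0 in replicate 2.

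In Tnfrsf1β-/- libraries 22 of the 33 genes passed with TNFα, in both directions and at shares near those of all tested genes. Of the 33, 7 were higher (background: 17.6%) and 15 lower (42.9%), with a median of -1.46 against -0.66 over all tested genes. Median-ratio scaling gave 7 higher and 7 lower and quantile normalization 7 and 10, and the share of all called genes that were higher went from 29.1% to 49.9% and 44.8%. The median of the 33 was -0.74 and -0.70 under these scalings, against -0.05 and -0.10 over all tested genes. With only the groups compared 5 were higher and 23 lower, and without the treated pair labelled Tnfrsf1α-/- 7 and 22. In these fits 71.8% and 73.9% of all tested genes were called, against 60.5% with all 12 libraries. Leaving out any of the 4 libraries gave a median of -1.46 to -1.38, against -0.79 to -0.51 over all tested genes. Sox9 and Krt7 rose here too (Sox9 from 0.04 and 0.02 to 6.30 and 5.69), as the only 2 of 9 tested progenitor markers that passed, with a list median of 0.03, and their part was not tested.

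The genes that were higher in Tnfrsf1β-/- with TNFα included Tm7sf2 and Aacs, both low without TNFα. Tm7sf2 went from 2.03 and 2.14 to 7.89 and 8.37 (6.04, SE 0.29, limma adjusted p = 1.92e-06). Aacs went from 3.18 and 3.20 to 8.53 and 7.39 (4.77, SE 0.33, limma adjusted p = 2.28e-05). Both stayed below the lowest level of each gene in untreated wild type, 8.68 and 9.69. Elovl6 rose by 1.95 (SE 0.25, limma adjusted p = 0.00047) and Pmvk by 1.48 (SE 0.30, limma adjusted p = 0.00304). Mvk rose by 0.86 (SE 0.26, limma adjusted p = 0.0205), Mvd by 0.80 (SE 0.27, limma adjusted p = 0.0308) and Ebp by 0.75 (SE 0.23, limma adjusted p = 0.0206). The calls of Mvk, Mvd and Ebp were each lost under some alternative. Fdps did not pass (0.02, SE 0.27), but was lower with quantile normalization (-0.70, limma adjusted p = 0.028), with levels of 6.45 and 6.46 untreated and 6.25 and 6.70 treated.

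The genes that were lower came from all 4 roles. Insig1 was at 6.09 and 6.18 untreated and at 2.72 and 2.76 treated, so the groups were apart in the direction opposite to wild type (-3.40, SE 0.24, limma adjusted p = 2.28e-05). Acat2 was at 5.12 and 5.14, then at 1.79 and 1.67 (-3.40, SE 0.59, limma adjusted p = 0.00153), and Hmgcs1 at 6.18 and 6.31, then at 3.27 and 3.32 (-2.95, SE 0.76, limma adjusted p = 0.00957). These enzymes carry out the first condensations of the mevalonate route. Acaca fell by 2.44 (SE 0.52, limma adjusted p = 0.00391), Srebf2 by 1.84 (SE 0.35, limma adjusted p = 0.00252), Acly by 1.78 (SE 0.36, limma adjusted p = 0.00301) and Fasn by 1.73 (SE 0.39, limma adjusted p = 0.00494). Fads1 (-2.65), the squalene monooxygenase gene Sqle (-2.04), Cyp51 (-1.71), Msmo1 (-1.63), Stard4 (-1.48), Nsdhl (-1.34), Dhcr7 (-0.97) and Hsd17b7 (-0.78) also passed. The calls from Fads1 to Hsd17b7 in this list were each lost under some alternative. With quantile normalization Hsd17b7 turned to 0.31 and Dhcr7 to 0.00. Srebf1 (-0.89, SE 0.43), Scap (-0.37, SE 0.26) and Insig2 (-0.12, SE 0.53) did not.

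Whether the response to TNFα differed from that of wild type was tested as a difference of differences. For the label Tnfrsf1α-/- 6 of the 33 genes had a higher response (background: 12.8%) and 7 a lower one (22%), with a median of -1.13 against -0.44 over all tested genes. The response of Tm7sf2 was higher by 7.98 (SE 0.42, limma adjusted p = 9.9e-07), that of Aacs by 7.57 (SE 0.47, limma adjusted p = 3.4e-06), that of Mvd by 3.47 (SE 0.38, limma adjusted p = 0.00018), that of Elovl6 by 3.09 (SE 0.36, limma adjusted p = 0.000243) and that of Fdps by 1.93 (SE 0.38, limma adjusted p = 0.00572). The 6th was Hsd17b7, which was listed at 0 in treated wild type. For Tm7sf2 and Aacs the untreated levels differed from wild type by -6.69 and -6.61 and the treated levels by 1.28 and 0.96.

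Lower responses under the label Tnfrsf1α-/- were found for Dhcr7 (-3.42, SE 0.51, limma adjusted p = 0.00118), Acly (-2.99, SE 0.50, limma adjusted p = 0.0025) and Insig1 (-1.72, SE 0.34, limma adjusted p = 0.00524). Hmgcs1, Msmo1, Fasn and Scd also passed as lower. Their calls and that of Insig1 were each lost under some alternative. Srebf1 (-1.69, limma adjusted p = 0.0599) and Srebf2 (-1.41, limma adjusted p = 0.0587) missed the threshold, as did Scap (-0.87) and Insig2 (-0.97). Leaving out treated replicate 1 of this label, the median of the 33 was -2.03, against -0.55 over all tested genes. Leaving out treated replicate 2, it was -0.62, against -0.35. Leaving out any wild-type library or either untreated library of the label, it was -1.40 to -0.85, against -0.61 to -0.28. Quantile normalization gave 6 higher and 4 lower responses. The share of all called genes that were higher went from 36.9% to 51.6% with median-ratio scaling and 48.0% with quantile normalization.

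For Tnfrsf1β-/- 4 of the 33 genes had a higher response than in wild type (background: 17.3%) and 23 a lower one (47.3%), with a median of -2.92 against -1.11 over all tested genes. Quantile normalization gave 5 and 14, and the share of all called genes that were higher went from 26.8% to 49.7% with median-ratio scaling and 47.5% with quantile normalization. With only the groups compared the counts were 4 and 27, and without the treated pair labelled Tnfrsf1α-/- 4 and 28. In these fits 75.9% and 78.3% of all tested genes were called, against 64.5% with all 12 libraries. The Insig1 response was lower by more than that of any other of the 33 (-9.73, SE 0.34, limma adjusted p = 6.75e-08). Dhcr7 (-5.13, SE 0.51, limma adjusted p = 5.79e-05), Acly (-4.88, SE 0.50, limma adjusted p = 7.58e-05), Fdps (-4.72, SE 0.38, limma adjusted p = 1.55e-05), Msmo1 (-4.41, SE 0.64, limma adjusted p = 0.000522) and Mvd (-3.78, SE 0.38, limma adjusted p = 6.55e-05) were also lower, with Fasn at -4.16 (SE 0.55, limma adjusted p = 0.000305). Srebf1 (-3.01), Srebf2 (-2.92) and Scap (-1.64) passed as well, and Insig2 (-1.64, limma adjusted p = 0.0834) did not. The higher responses were those of Tm7sf2 (5.90, SE 0.42), Aacs (4.38, SE 0.47), Pmvk (1.47, SE 0.42) and Hsd17b7. Leaving out untreated or treated replicate 2 of Tnfrsf1β-/- gave 2 higher and 20 lower. Both response comparisons share the 4 wild-type libraries.

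Without TNFα the label Tnfrsf1α-/- differed from wild type in 10 of the 33 genes, with 3 higher (background: 36.7%) and 7 lower (17%). The median was 0.55 against 0.48 over all tested genes. With median-ratio scaling it was 0.02 against 0.04, and with quantile normalization 0.05 against 0.04. The counts changed with the libraries fitted: 8 genes were higher and 7 lower with only the groups compared, and 17 higher and 8 lower without the treated pair of this label. Calls over all tested genes rose too, from 53.7% with all 12 libraries to 55.8% and 68.5% in these fits. Of those calls 68.3%, 66.9% and 68.2% were higher. Tm7sf2 (2.0 and 1.98 against 8.69 and 8.68 in wild type; -6.69, SE 0.29, limma adjusted p = 8.84e-07) was lower. Aacs (3.13 and 3.33 against 9.98 and 9.69; -6.61, SE 0.33, limma adjusted p = 2.21e-06) and Elovl6 (2.17 and 2.06 against 6.33 and 5.88; -3.99, SE 0.25, limma adjusted p = 1.05e-05) were lower too. Mvd, Ebp, Pmvk and Mvk were lower by 0.86 to 1.41. Insig1 was higher (1.73, SE 0.24, limma adjusted p = 0.000727), as were Acaca (2.16, SE 0.52, limma adjusted p = 0.00801) and Acly (1.13, SE 0.36, limma adjusted p = 0.026). Srebf1 (0.35), Srebf2 (0.83), Scap (0.25) and Insig2 (1.10) did not pass. Without wild-type replicate 1 or 2 the median of the 33 was 0.74 or 0.37, against 0.64 or 0.31 over all tested genes. Sox9 and Krt7 were low in these libraries and their part was not tested.

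Untreated Tnfrsf1β-/- differed from wild type in 13 of the 33 genes, 7 higher (background: 36.9%) and 6 lower (17.5%), with a median of 1.06 against 0.47 over all tested genes. With only the groups compared 20 were higher and 7 lower, and without the treated pair labelled Tnfrsf1α-/- 22 and 6. Calls over all tested genes went from 54.4% with all 12 libraries to 58.1% and 69% in these fits. Of those calls 67.8%, 65.7% and 67.9% were higher. Median-ratio scaling gave 5 higher and 7 lower, and it took the share of all called genes that were higher from 67.8% to 52.5%. For the label Tnfrsf1α-/- that share went from 68.3% to 52.0%. Without wild-type replicate 1 or 2 the median of the 33 was 1.23 or 0.82, against 0.62 or 0.31 over all tested genes. Aacs (-6.65, SE 0.33, limma adjusted p = 2.18e-06), Tm7sf2 (-6.60, SE 0.29, limma adjusted p = 9.96e-07) and Elovl6 (-3.40, SE 0.25, limma adjusted p = 3.4e-05) were again the lowest, with Pmvk, Ebp and Mvd lower by 0.78 to 1.25. Insig1 (2.87, SE 0.24, limma adjusted p = 6.63e-05), Srebf2 (1.57, SE 0.35, limma adjusted p = 0.00615), Acaca (2.68, SE 0.52, limma adjusted p = 0.00304), Fasn (1.63, SE 0.39, limma adjusted p = 0.00766) and Acly (1.52, SE 0.36, limma adjusted p = 0.00727) were higher, as were Hmgcs1 and Dhcr7. Srebf1 (1.08), Scap (0.60) and Insig2 (0.64) did not pass. The 2 comparisons share the untreated wild-type libraries.

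With TNFα, the label Tnfrsf1α-/- had 5 genes higher than wild type (background: 22.7%) and 9 lower (22.4%), with a median of -0.54 against 0.08 over all tested genes. Mvd (11.56 and 11.61 against 9.24 and 9.81; 2.06, SE 0.27, limma adjusted p = 0.000425) and Fdps (1.25, SE 0.27, limma adjusted p = 0.00611) were higher, as were Tm7sf2 (1.28) and Aacs (0.96). The 5th was Hsd17b7. Dhcr7 was lower (3.53 and 2.43 against 6.43 and 6.29; -3.38, SE 0.36, limma adjusted p = 0.000117), as were Mvk (-1.77, SE 0.26, limma adjusted p = 0.000887), Acly (-1.86, SE 0.36, limma adjusted p = 0.00331), Msmo1 (-1.93, SE 0.45, limma adjusted p = 0.00888) and Srebf1 (-1.34, SE 0.43, limma adjusted p = 0.0332). Insig1 (0.01, SE 0.24), Insig2 (0.14), Srebf2 (-0.58) and Scap (-0.61) did not pass. Without treated replicate 1 of the label the median of the 33 was -1.50, against 0.00 over all tested genes. Without replicate 2 it was 0.32, against 0.12. Leaving out wild-type treated replicate 1 or 2, it was -0.51 or -0.62, against 0.12 or 0.03.

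Treated Tnfrsf1β-/- had 1 gene higher than treated wild type (background: 14.7%) and 21 lower (36.3%), with a median of -1.94 against -0.41 over all tested genes. Quantile normalization gave 1 and 13, and the share of all called genes that were higher went from 28.8% to 54.9% with median-ratio scaling and 53.0% with quantile normalization. With only the groups compared, and also without the treated pair labelled Tnfrsf1α-/-, the counts were 1 and 29. In these fits 65.1% and 65.9% of all tested genes were called, against 51% with all 12 libraries. Insig1 was lower by the largest amount (2.72 and 2.76 against 9.76 and 9.45; -6.86, SE 0.24, limma adjusted p = 3.41e-08). Elovl6 (-5.08, SE 0.25, limma adjusted p = 4.02e-07), Fdps (-5.06, SE 0.27, limma adjusted p = 6.99e-07), Mvd (-4.56, SE 0.27, limma adjusted p = 1.42e-06) and Dhcr7 (-4.07, SE 0.36, limma adjusted p = 2.48e-05) were lower by over 4. Srebf1 (-1.94), Srebf2 (-1.35) and Scap (-1.04) were lower, and Insig2 (-1.0, SE 0.53) did not pass. The 1 higher gene was Hsd17b7, listed at 0 in treated wild type. Albumin was listed at 0 in treated Tnfrsf1β-/-, where the 14 hepatocyte markers summed to 8.96 and 9.69 FPKM against 5050 and 5220 in treated wild type, and their part in this contrast was not tested.

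Other genes of the same pathways, taken from a list of 33 of which 28 could be tested, were set beside these. With TNFα in wild type 11 were higher and 0 lower by limma (1 lower at an unadjusted p under 0.05), 39.3% higher against 31.9% of all tested genes, with a median of 0.96 against 0.32. Hacd3, a dehydratase of fatty acid elongation, went from 3.82 and 3.49 to 7.58 and 7.57 (3.92, SE 0.23, limma adjusted p = 1.34e-06), and Lpin1, a phosphatidate phosphatase, rose by 2.71 (SE 0.23, limma adjusted p = 2.14e-05). Por, the electron donor to Cyp51 and Sqle, rose by 2.46 (SE 0.26, limma adjusted p = 8.17e-05). Elovl5, which lengthens polyunsaturated chains, was listed at 0 in both untreated wild-type libraries and in all treated libraries with a knockout label, and at 5.0 to 6.43 in the other 6.

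Under the label Tnfrsf1α-/- 3 of the 28 were higher with TNFα and 2 lower (10.7% and 7.14%), shares near the 9.81% and 7.5% of all tested genes. These counts changed with the treated library left out, as did those over all tested genes. Tecr, a reductase of fatty acid elongation (1.24, SE 0.21, limma adjusted p = 0.0046), and Slc25a1, the mitochondrial citrate carrier (1.10, SE 0.23, limma adjusted p = 0.0152), were among the higher genes. In Tnfrsf1β-/- 1 of the 28 was higher, Slc25a1 (0.99, SE 0.23, limma adjusted p = 0.00647), and 15 were lower, 3.57% and 53.6% against 17.6% and 42.9% of all tested genes, with a median of -1.14 against -0.66. Those lower included Scd2, a stearoyl-CoA desaturase (-3.26, SE 0.59, limma adjusted p = 0.00194), and Acsl3, which activates fatty acids (-1.88, SE 0.31, limma adjusted p = 0.00131). Without TNFα 12 of the 28 were higher than in wild type and 2 lower under the label Tnfrsf1α-/-, and 13 and 2 in Tnfrsf1β-/-. The higher shares, 42.9% and 46.4%, stood beside 36.7% and 36.9% of all tested genes, and the lower share of 7.14% in each beside 17% and 17.5%. In the treated comparisons 4 were higher and 8 lower under the first label (14.3% and 28.6%, against 22.7% and 22.4% of all tested genes), and 0 higher by limma (1 at an unadjusted p under 0.05) and 14 lower (50%) under the second, against 14.7% and 36.3%. For the first label the treated counts changed with any of the treated libraries left out, as did those over all tested genes.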

How the data were processed

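RNA-seq was done on total RNA extracted with Trizol, in libraries made with a TruSeq kit, per the labels' protocols. The authors deposited FPKM on a log2 scale, 1 column for each of the 12 libraries. For aligner, counting tool, build, strandedness and filters: not given in the sources used here. That the scale is log2(FPKM + 1) was inferred from the values, which reach 16.8. Because FPKM is relative, a few abundant genes lower all others. In the GRCr8 annotation 11 of the 33 genes overlap another gene, and their reads may be shared. Lines with no symbol (346 of 22730) were left out.

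Genes with a mean of at least 1 FPKM entered limma 3.58.1 (run in R 4.3.3) as log2(FPKM + 1), a pseudocount of 1, with a model of 6 group means over all 12 libraries, with an intensity trend and no block. P-values are two-sided and Benjamini-Hochberg adjusted over 11860 lines within each of 9 contrasts, with a threshold of 0.05. The fit was also run on simulated data in which the spread of each gene was the same in all groups. Such data cannot show how the fit behaves when the libraries of 1 group differ far more, as in the treated label Tnfrsf1α-/-. Alternatives were another pseudocount (0.1), no filter, median-ratio scaling, quantile normalization, the replicate number as a block, other sets of libraries and leaving out each library.

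The members, gene lists, motifs and tests were chosen with earlier results of these data known. In each contrast the text names Srebf1, Srebf2, Scap, Insig1 and Insig2, up to 6 further higher and 6 lower members with the smallest p, other members where they complete a pathway step, and up to 4 genes of each other list. Members beyond that, Slc25a1 in Tnfrsf1β-/- and the markers Sox9, Krt7, Krt8, Acta2, Spp1, Tagln and Dcn were added after their values were seen.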

Additional observations from a re-analysis of the deposited data

Results flagged for a closer look

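For the members below, the response to TNFα differed from that in wild type by limma's test of the difference itself. All values are differences of responses on the log2(FPKM + 1) scale.

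Under the label Tnfrsf1α-/- the response was higher for Tm7sf2 (7.98), Aacs (7.57), Mvd (3.47), Elovl6 (3.09), Hsd17b7 (2.15) and Fdps (1.93). It was lower for Scd (-5.73), Hmgcs1 (-4.13), Dhcr7 (-3.42), Acly (-2.99), Msmo1 (-2.45), Fasn (-1.91) and Insig1 (-1.72). The values for Scd and Hmgcs1 rest on a treated pair that differed by 5.56 and 3.02 between its libraries. The calls of Scd, Hmgcs1, Msmo1, Fasn and Insig1 were each lost under some alternative. Insig1 was at 9.92 and 9.30 treated, against 9.76 and 9.45 in wild type, and at 5.10 and 4.90 untreated, against 3.42 and 3.13. Elovl6 was at 8.67 and 9.01 treated, against 9.95 and 9.53, and at 2.17 and 2.06 untreated, against 6.33 and 5.88.

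In Tnfrsf1β-/- the response was higher for Tm7sf2 (5.90), Aacs (4.38), Pmvk (1.47) and Hsd17b7 (1.07). It was lower for Insig1 (-9.73), Dhcr7 (-5.13), Acly (-4.88), Fdps (-4.72), Msmo1 (-4.41), Fasn (-4.16), Mvd (-3.78), Srebf1 (-3.01), Srebf2 (-2.92) and Scap (-1.64). This is not the full set of 23 lower members, because the genes other than controllers were picked by smallest p. Among those left out, Scd (-6.49), Hmgcs1 (-5.81), Fads1 and Acat2 also passed as lower. The calls of Pmvk, Hsd17b7, Scap and Scd were each lost under some alternative. Both values for Hsd17b7 rest on a listed 0 in treated wild type and are no measure of a fold.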

How the results depend on the processing

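Of 149 calls of members over the 9 contrasts, 86 passed under every alternative tried and 63 were lost under at least 1. Counts of the 33 members called changed by over 1.5 times in these cases, whose cause was not tested. The share of all tested genes that were called is given in brackets. Median-ratio scaling gave 14 in place of 22 for TNFα in Tnfrsf1β-/- (54.7% in place of 60.5%). Quantile normalization gave 13 in place of 21 for TNFα in wild type (44.7% in place of 47.2%). It gave 11 in place of 7 for TNFα under the label Tnfrsf1α-/- (31.9% in place of 17.3%). For treated Tnfrsf1β-/- against wild type it gave 14 in place of 22 (45.1% in place of 51%). Fitting only the groups compared gave 27 in place of 13 for untreated Tnfrsf1β-/- against wild type (58.1% in place of 54.4%). It gave 5 in place of 14 for the treated label Tnfrsf1α-/- against wild type (17.8% in place of 45.2%). Without both treated libraries labelled Tnfrsf1α-/-, that label untreated against wild type gave 25 in place of 10 (68.5% in place of 53.7%). Untreated Tnfrsf1β-/- gave 28 in place of 13 (69% in place of 54.4%). Without the 4 untreated libraries with a knockout label, the treated label Tnfrsf1α-/- gave 8 in place of 14 (30.7% in place of 45.2%).

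Leaving out 1 library at a time, the lone library of its group being assumed to vary like the others, gave 13 to 18 for TNFα in wild type, 6 to 24 under the label Tnfrsf1α-/- and 11 to 13 in Tnfrsf1β-/-. The differences in response gave 9 to 28 and 21 to 25, the untreated comparisons 7 to 11 and 8 to 13, and the treated comparisons 7 to 25 and 16 to 19, each with the label Tnfrsf1α-/- first. Signs also turned. Under quantile normalization TNFα in Tnfrsf1β-/- gave -0.06 for Npc2, 0.00 for Dhcr7, -0.70 for Fdps and 0.31 for Hsd17b7, and the difference in its response from wild type gave 0.16 for Elovl6. Untreated against wild type, it gave -0.91 for Dhcr7, -0.78 for Hsd17b7 and 0.12 for Npc2 under the label Tnfrsf1α-/-, and -0.51 for Hsd17b7 and 0.07 for Npc2 in Tnfrsf1β-/-. Under the label Tnfrsf1α-/-, some members that had not passed changed sign with the treated library left out, replicate 1 or replicate 2. In that order, the TNFα differences were Acat2 -1.02 and 1.19, Cyp51 -1.22 and 1.14, Fads1 -1.30 and 2.28, Fdft1 -0.87 and 1.18, Lss -1.68 and 1.43, Msmo1 -0.54 and 1.21, Sc5d -1.25 and 1.37, Sqle -1.56 and 1.06, and Stard4 -1.30 and 0.75. The differences from treated wild type were Fads1 -2.89 and 0.69, Fdft1 -1.48 and 0.57, and Idi1 -2.19 and 1.17. Those of Lss were -1.91 and 1.19, of Sc5d -1.64 and 0.99, and of Sqle -1.59 and 1.03. Both lists are partial. For TNFα they leave out, among others, Fads2, Scd, Idi1, Hmgcs1, Srebf1 and Srebf2. In each of these, treated replicate 1 lay above both untreated libraries of the label and replicate 2 below both. Against treated wild type, Fads2 is among those left out, at 7.67 and 0 against 6.92 and 6.81.

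Same-numbered replicates did not deviate together in every pair of groups (r from -0.17 to 0.24, above 0.1 in 9 of 15). Whether the replicate numbers pair the libraries cannot be told from this. With the replicate number as a block the members called were 21, 7 and 22 for TNFα in wild type, the label Tnfrsf1α-/- and Tnfrsf1β-/-. They were 15 and 27 when responses were compared with wild type, 11 and 15 untreated, and 13 and 23 treated. Depth is unknown, 2 libraries a group limit the precision, and genes listed at 0 have no usable fold.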

Other observations

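Genes of oxysterol sensing, sterol efflux and sterol storage, from a list of 18 of which 14 could be tested, were described apart from the synthesis genes. With TNFα in wild type 8 were higher and 1 lower (57.1% and 7.14%, against 31.9% and 15.3% of all tested genes), with a median of 1.53 against 0.32 over all tested genes. Nr1h3, which encodes the oxysterol receptor LXRα, was at 0 and 0.11 untreated, at 6.45 and 6.63 treated, and at most 0.32 in the other 8 libraries. Soat2, which esterifies cholesterol in hepatocytes, stood at 5.02 and 4.99 treated against a listed 0 in the untreated pair, with at most 0.03 in the other 8. Nr1h3 and Soat2 reached the mean required for testing only through the treated wild-type pair. Cyp27a1, a sterol hydroxylase (5.36, SE 0.66, limma adjusted p = 0.000241), and Scarb1, the HDL receptor (2.16, SE 0.28, limma adjusted p = 3e-04), were also higher. The hepatocyte markers were high in the same 2 libraries, and their part was not tested.

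Under the label Tnfrsf1α-/- 1 of the 14 was higher with TNFα and 0 lower by limma, also 0 at an unadjusted p under 0.05, a higher share of 7.14% against 9.81% of all tested genes. Without treated replicate 1 or 2 the counts changed, as did those over all tested genes, so the 0 does not hold for each library alone. The higher gene was Npc2, which carries cholesterol out of lysosomes, at 6.91 and 7.01 untreated and at 8.34 and 8.95 treated (1.68, SE 0.28, limma adjusted p = 0.00451). In Tnfrsf1β-/- 1 was higher, Npc2 (1.00, SE 0.28, limma adjusted p = 0.0144), which turned to -0.06 with quantile normalization, and 5 were lower (35.7%, against 42.9% of all tested genes). Those lower included Osbp, a sterol carrier (-1.87, SE 0.36, limma adjusted p = 0.00256), and Npc1, the partner of Npc2 (-1.42, SE 0.30, limma adjusted p = 0.00383).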
